A study of Mus musculus with 10 samples.

Results

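The regions described here are promoter regions with an ATAC-seq peak in WT and none in cKO. ATAC-seq reads the DNA that a transposase can reach, and a peak marks a place where the chromatin is open. A region was taken when it shared at least 1 bp with a peak of both WT libraries, shared no bp with a peak of either cKO library, and lay within 1000 bp of either end of a RefSeq gene on GRCm38. Of the 16600 regions compared between the groups, 6526 met this rule, which is 39.3% (95% Wilson interval 38.6 to 40.1, counting error only). Since peaks of the WT and cKO libraries chose the regions, the WT and cKO values of the regions are a description and were not tested.

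All mice were C57BL/6 of 8 to 10 weeks with floxed alleles of *Arid1a*. Control mice (WT, labelled Arid1a fl/fl) had an eye injection of AAV2-GFP and knockout mice (cKO, labelled Arid1a del/del) of AAV2-Cre, in each case 2 weeks before optic nerve crush (ONC). Retinal cells positive for Thy1.2 were sorted 3 days after ONC, with retinas of several animals in each sample, and gave 2 ATAC-seq libraries and 3 RNA-seq libraries per group. The virus drove its cargo from a CMV promoter, which is not restricted to retinal ganglion cells (RGCs), and every animal was injured, so no uninjured state is part of the comparison. RGCs are the neurons that send the optic nerve to the brain, and Thy1 is also carried by T cells.

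ARID1A is a DNA-binding subunit of the canonical BAF (SWI/SNF) complex, which uses ATP to slide and evict nucleosomes. Promoters of most widely used genes sit in CpG islands, stretches rich in CG pairs that are largely unmethylated and hold binding sites for factors such as SP1, NF-Y, ETS proteins and NRF1. Promoters of many genes used in few cell types lack CpG islands and more often carry a TATA box. BAF is best known for its work at enhancers, and it is found at promoters as well.

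A few of the promoter windows show what these regions hold. Each runs from 250 bases before to 50 bases after an annotated RefSeq start (GRCm38.p6), is read 5′ to 3′ on the gene's strand, and has matches to the searched motifs in capitals. The promoters of *Sp1*, a factor that binds GC boxes, and *Gsk3b*, a kinase of the WNT and insulin pathways, lie in regions among those with the highest WT values. *Rhoa*, a small GTPase of the cytoskeleton, lies in the region with the second largest WT minus cKO difference. *Socs3*, a brake on cytokine signalling through JAK and STAT, and *Fos*, an AP-1 subunit, are injury-response genes. *Sag*, the rod arrestin, has no region of the comparison at its start and is shown for contrast, chosen after its values were seen.
Sp1 (chr15:102406066-102406365, plus strand): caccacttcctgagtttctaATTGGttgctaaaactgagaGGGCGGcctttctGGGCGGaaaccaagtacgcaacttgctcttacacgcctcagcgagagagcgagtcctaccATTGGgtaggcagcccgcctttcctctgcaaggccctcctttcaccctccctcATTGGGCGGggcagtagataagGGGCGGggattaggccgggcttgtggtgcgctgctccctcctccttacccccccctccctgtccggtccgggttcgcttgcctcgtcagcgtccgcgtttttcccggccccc
Gsk3b (chr16:38088751-38089050, plus strand): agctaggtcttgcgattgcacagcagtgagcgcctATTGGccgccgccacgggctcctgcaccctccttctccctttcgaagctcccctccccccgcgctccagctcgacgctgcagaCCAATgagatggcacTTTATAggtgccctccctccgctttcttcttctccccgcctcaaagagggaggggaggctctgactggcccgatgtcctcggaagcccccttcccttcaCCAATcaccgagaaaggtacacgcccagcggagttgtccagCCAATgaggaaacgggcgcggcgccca
Rhoa (chr9:108305910-108306209, plus strand): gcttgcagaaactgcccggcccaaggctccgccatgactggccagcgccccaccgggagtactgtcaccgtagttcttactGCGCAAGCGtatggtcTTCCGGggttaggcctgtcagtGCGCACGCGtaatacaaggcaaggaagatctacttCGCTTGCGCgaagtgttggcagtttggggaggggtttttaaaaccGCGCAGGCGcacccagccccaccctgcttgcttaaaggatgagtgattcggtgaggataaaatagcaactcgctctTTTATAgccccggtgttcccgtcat
Socs3 (chr11:117969317-117969616, minus strand): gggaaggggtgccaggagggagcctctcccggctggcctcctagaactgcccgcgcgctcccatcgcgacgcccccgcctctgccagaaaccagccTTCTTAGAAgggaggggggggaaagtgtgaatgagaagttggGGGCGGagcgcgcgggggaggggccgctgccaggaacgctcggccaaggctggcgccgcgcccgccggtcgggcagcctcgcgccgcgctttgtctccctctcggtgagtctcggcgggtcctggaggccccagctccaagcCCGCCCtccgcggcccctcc
Fos (chr12:85473640-85473939, plus strand): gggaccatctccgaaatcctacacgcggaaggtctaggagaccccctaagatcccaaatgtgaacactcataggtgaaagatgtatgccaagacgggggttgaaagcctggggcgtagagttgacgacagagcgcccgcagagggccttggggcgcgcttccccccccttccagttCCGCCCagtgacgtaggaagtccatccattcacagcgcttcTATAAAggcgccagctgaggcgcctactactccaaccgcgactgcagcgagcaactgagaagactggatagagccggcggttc
Sag (chr1:87803430-87803729, plus strand): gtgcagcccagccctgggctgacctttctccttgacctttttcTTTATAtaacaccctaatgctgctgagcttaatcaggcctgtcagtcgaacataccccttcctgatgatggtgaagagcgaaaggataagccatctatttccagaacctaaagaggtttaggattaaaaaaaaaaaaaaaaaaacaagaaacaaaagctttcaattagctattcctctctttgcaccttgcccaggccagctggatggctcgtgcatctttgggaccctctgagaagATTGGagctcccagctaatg
The *Sp1* window holds 4 GC boxes (GGGCGG) and 3 CCAAT boxes, with 1 of these overlapping a GC box. The *Gsk3b* window holds 4 CCAAT boxes and no GC box, and the *Rhoa* window holds 4 NRF1 matches. The *Socs3* window has 31 CG pairs and the *Fos* window 20, against 3 in the *Sag* window. The *Fos* window has a TATA match 33 bases before the start.

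At the median WT-only promoter region the WT value was 5.07 and the cKO value 2.49. These values are the log2 of a group's mean normalized reads, pooled over its libraries with no spread given, so they stand for 33.6 reads in WT and 5.62 reads in cKO. The median of the WT minus cKO differences was 2.68, or 6.41-fold. The difference exceeded 1 in 97.6% of the regions, 2 in 77.2%, 3 in 36.8% and 4 in 9.82%. In 1 region, beside *Pck2*, the cKO value was the higher, at 3.36 against 3.31. The regions were 242 to 2803 bp long with a median of 804 bp, and the longer ones had the higher WT values (Spearman's rank correlation 0.622 over 6526 regions, which share libraries). No division of the reads by region length is given, so a longer region can hold more reads by its length alone. Values of sets that differ in length are to be read with this limit.

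**Figure D1:**
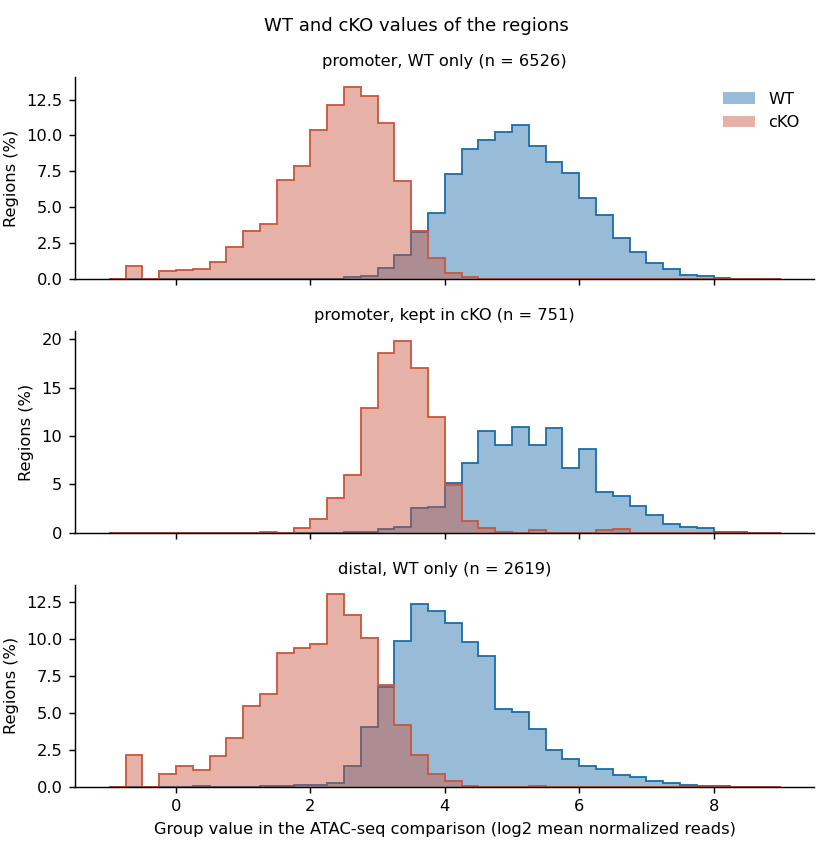
Share of regions (y axis, %) by group value (x axis, log2 mean normalized reads, bins of 0.25) for WT-only promoter regions, promoter regions that kept a cKO peak and distal WT-only regions, with WT in blue and cKO in red; 2 kept regions with a value over 9 are not drawn. In the WT-only promoter regions the WT values centre on 5.07 and the cKO values on 2.49, with a small pile of cKO values at the lowest value of the table, -0.75.

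Most promoter regions that were open in WT belonged here. Of 7277 promoter regions where both WT libraries had a peak, 89.7% (89.0 to 90.4) had no peak in either cKO library, and 751 kept at least 1: 373 in cKO replicate 1 alone, 339 in cKO replicate 2 alone, and 39 in both. The kept regions were longer, with a median of 986 bp, and had a median WT value of 5.26 and a median cKO value of 3.34. Away from gene ends, 2619 of 2982 regions where both WT libraries had one (87.8%, 86.6 to 89.0) had none in cKO, and these had lower WT values, with a median of 4.06, and a median difference of 1.98.

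Regions just inside and just outside the 1000 bp limit had similar values. The 56 regions in the last 100 bp inside the 1000 bp limit had a median WT value of 4.36 and a median difference of 2.38, and the 46 WT-only regions in the 100 bp beyond it had 4.53 and 2.46. In the 33 regions with a cKO peak no more than 50 bp away the median difference was 2.34. Among promoter regions with both WT peaks, 0 shared 50 bp or less with a cKO peak. The regions may have been built from whole peaks, which would fix that 0 in advance, so nothing is read from it. The nearest cKO peak lay at a median of 5853.5 bp, and 711 regions (10.9%) had one within 1000 bp.

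The share of peaks at gene ends moved with the groups. Of the peaks in the WT libraries 17.8% and 25.2% overlapped the surroundings of a gene end, against 9.0% and 8.02% in the cKO libraries, although the cKO lists were not short, with 55902 and 68317 peaks against 76522 and 42265. Summed over all regions, the normalized reads came to 461251 in WT and 121688 in cKO, and the WT-only promoter regions held 60.3% of the former and 32.0% of the latter. How the libraries were scaled against each other is not given in the sources used here. With 2 libraries per group, a smaller share of reads in open chromatin in the cKO libraries and a closing of these promoters cannot be told apart.

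The regions sat on gene starts. In 5302 of them (81.2%) an annotated start lay within 1000 bp, in 89 (1.36%) the only gene end in reach was a far end, and for 1135 (17.4%) no strand was known for the genes in reach. The far-end regions were the weaker, with a median WT value of 4.14 and a median difference of 1.93, at a median length of 637 bp. A start lay inside 4729 regions (72.5%), whose centres fell at a median of 20 bp downstream of it (quartiles -83.5 and 137 bp), and 74.9% had their centre within 200 bp. In 812 regions (12.4%) starts of both strands pointed away from each other, and these bidirectional promoters had a higher median WT value, 5.46, and a larger median difference, 2.93. They were also longer, with a median of 865.5 bp against 804 bp for all WT-only promoter regions. The longest WT peak covered a median of 86.4% of the region in replicate 1 and 84.2% in replicate 2. The rule asks for a peak in both WT libraries, and pooled values do not show the signal of each.

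The 10 highest WT values lay between 8.02 and 8.42. *Nr1d2*, a repressor of the circadian clock, had 304 normalized reads in WT and 10.9 in cKO over 1310 bp (WT value 8.25, cKO value 3.44). The *Gsk3b* region (chr16:38088414-38089803) had 294 reads in WT and 8.34 in cKO, and peaks covered 1338 bp of it in WT replicate 1 and 1297 bp in WT replicate 2. *Sp4*, a GC-box factor of neurons, stood at 8.05 in WT and 3.37 in cKO, and *Sp1* (chr15:102405329-102406388) at 7.95 and 3.12. *Jun*, the AP-1 subunit that drives the neuronal response to axon injury, had the longest WT-only promoter region, 2803 bp, with 263 reads in WT and 20.4 in cKO. *Zbtb20*, *Khsrp*, *Cic*, *Kat6b* and the *Gt(ROSA)26Sor* locus, which is used for transgenes because it is open in most cells, had WT values of 8.02 to 8.25. The top value of 8.42 fell on *4930526I15Rik*.

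The largest differences came where cKO signal was at the lowest value of the table. All 10 of the largest had a cKO value of -0.75, which stands for 0.595 normalized reads and which 60 of the WT-only promoter regions shared. The region at *Angptl6* led with 100.4 reads in WT and a difference of 7.40, followed by *Rhoa* and its neighbour *Tcta* with 85.6 reads and 7.17, and by *Siah1b*, a ubiquitin ligase gene on the X chromosome, with 54.2 reads and 6.51. The histone gene pairs at *H2bc14* and *H2bc22*, the histone acetyltransferase *Kat6a*, *Zbtb22* with *Daxx*, *Rfx2*, *Aldh4a1* and *Gm34157* followed with 6.00 to 6.44. A difference against the lowest value depends on how a near-empty group was set, so these sizes are the least certain. At the other end, *Pck2*, *Rec114*, *Gm39468*, *Gm38819* and *Gm13205* had differences of -0.05 to 0.16 with WT values of 2.65 to 3.50, although no cKO peak was called there.

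The targeted gene was among them. The *Arid1a* region (chr4:133756722-133757681, 960 bp) had a WT value of 5.12 and a cKO value of 2.44, and peaks covered 960 bp in WT replicate 1 and 839 bp in WT replicate 2. Another annotated start of the gene, downstream of this region (window chr4:133753936-133754235), lay in no region of the comparison. Of 28 BAF subunit genes, 18 had such a region, with a median WT value of 5.16 and a median difference of 2.65. The ATPase *Smarca4* stood at 6.50 and 2.65, and the actin-like subunit *Actl6a* at 7.06 and 2.64. *Brd9*, a subunit of the non-canonical complex, kept a cKO peak.

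The genes that the study names were nearly all represented, with 25 of 29 having a WT-only promoter region, but that list was chosen on these samples. *Socs3* (chr11:117968596-117970137, 1542 bp) had a WT value of 6.16 and a cKO value of 3.20, and *Socs1*, its relative in the interferon pathway, 6.75 and 3.43. The transcription factor *Stat3*, which carries cytokine signals to the nucleus, had a difference of 4.07. *Fos* (chr12:85473314-85474007) had 63.6 reads in WT and 1.78 in cKO, a difference of 5.16. *Elk1*, an ETS factor that acts on immediate early genes, had 24.6 reads in WT and 2.36 in cKO. *Nfkbia*, the inhibitor of NF-kB, stood at 6.07 and 2.95, and *Foxo3*, a factor of the stress and survival response, at 7.40 and 3.54. *Pim1* kept a cKO peak, and *Tlr2* and *Gfi1b* had no such region.

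Genes that most cells use were often represented. Of the 21883 coding genes of RefSeq, 6990 (31.9%) had a WT-only promoter region. Of the 13602 coding genes with at least 1 TPM in at least 3 RNA libraries, 48.0% had such a region. The share was 41 of 53 for core spliceosome genes, 55 of 78 for cytosolic ribosomal proteins, 40 of 57 for protein processing in the endoplasmic reticulum, 35 of 52 for autophagy and 32 of 54 for chromatin modifiers. *U2af2*, which recognises the end of introns, stood at 7.57 in WT and 3.86 in cKO, and *Rps19*, of the small ribosomal subunit, at 7.06 and 1.84. The chaperone *Hsp90b1* and the stress kinase *Eif2ak3* of the endoplasmic reticulum had WT values of 7.34 and 7.33 and differences of 4.58 and 4.70. SOCS and JAK-STAT genes were represented by 24 of 38, AP-1 and immediate early genes by 17 of 31, KLF and SP factors by 13 of 26, cell cycle genes by 31 of 52, apoptosis genes by 34 of 69, and ETS factors by 8 of 26. Of the axon regeneration genes, 19 of 44 were included, among them *Gsk3b*, *Jun*, *Klf6* and *Socs3*. Counting only genes past that TPM limit, the share was 63.2% for SOCS and JAK-STAT genes and 66.7% for KLF and SP factors. It was 57.8% for cell cycle, 54.8% for AP-1 and immediate early, 50.8% for apoptosis and 46.2% for axon regeneration genes. ETS factors came to 40.0%. Several of these shares lie near the 48.0% of coding genes.

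Genes that name a retinal cell type were almost absent. The region was found at 2 of 30 RGC identity genes, *Nefh* and *Tubb3*, with WT values of 4.36 and 3.65. *Thy1*, the gene of the sorted surface protein, and the RGC factors *Pou4f1*, *Pou4f2* and *Rbpms* had no region of the comparison at an end. Of rod and cone genes 2 of 32 had a WT-only promoter region (*Rom1* and *Gnat2*), of Mueller glia and astrocyte genes 2 of 19, of T cell genes 2 of 22 (*Cd3e* and *Nkg7*), of microglia and myeloid genes 1 of 24, of amacrine and bipolar cell genes 3 of 25, and of endothelial and pericyte genes 0 of 20, where the Wilson interval reaches 16.1%. Some other genes of these lists had only a promoter region that kept a cKO peak. These were 1 RGC identity gene, 3 Mueller glia and astrocyte genes, 2 T cell genes and 2 amacrine and bipolar cell genes. The count was 0 for the rod and cone, microglia and myeloid, and endothelial and pericyte lists. Receptor families that are used outside the retina were nearly empty too: 1 of 1106 olfactory receptor genes and 1 of 353 vomeronasal receptor genes had a WT-only promoter region.

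Other gene families were represented to varying degrees. Replication-dependent histone genes, which are read in S phase and lie in clusters, had such a region in 42 of 67 cases, and their 24 regions had a median difference of 3.38 with a median cKO value of 1.70. Transfer RNA genes, which RNA polymerase III reads from promoters inside the gene, had one in 129 of 408 cases (31.6%), beside 31.9% of coding genes. Of the 82 regions near a tRNA gene 32 had no other gene in reach, with a median WT value of 5.06 and a median difference of 2.56. Zinc finger genes named *Zfp* had one in 144 of 367 cases, at a median WT value of 4.85.

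The share of genes with a WT-only promoter region followed their RNA level in the libraries labelled WT, given as TPM (transcript abundance scaled for length and to a fixed sum per library). Of coding genes listed at 0, 0.684% had such a region, between 0 and 1 TPM 7.81%, from 1 to 3 TPM 25.5%, and from 3 to 10 TPM 39.2%. The share then levelled off, at 50.2% from 10 to 30 TPM, 56.8% from 30 to 100 TPM and 59.2% (54.1 to 64.1) over 300 TPM. The median level was 24.6 TPM with such a region and 1.03 TPM without. Among genes that had a region, its WT value followed the RNA level only loosely (Spearman's rank correlation 0.109 across genes, which are not independent). Some of the most abundant RNAs had no region of the comparison at either end, 559 coding genes over 100 TPM in all.

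The letters of the promoters differed as well. For 6374 windows whose start lay in a WT-only promoter region the median GC content was 63.3%, against 52.7% over all 32807 windows of the RefSeq table. The ratio of observed to expected CG pairs, which is low in most of the genome and higher in CpG islands, had a median of 0.828 against 0.383. It exceeded 0.6 in 86.5% of these windows and in 35.8% of all. Promoters of expressed genes (at least 1 TPM in at least 3 libraries) came to 0.718, and those of them with a start in no region to 0.546. The windows in promoter regions that kept a cKO peak had 0.835, so this ratio set the WT-only regions apart from other promoters but hardly from the kept ones.

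**Figure D2:**
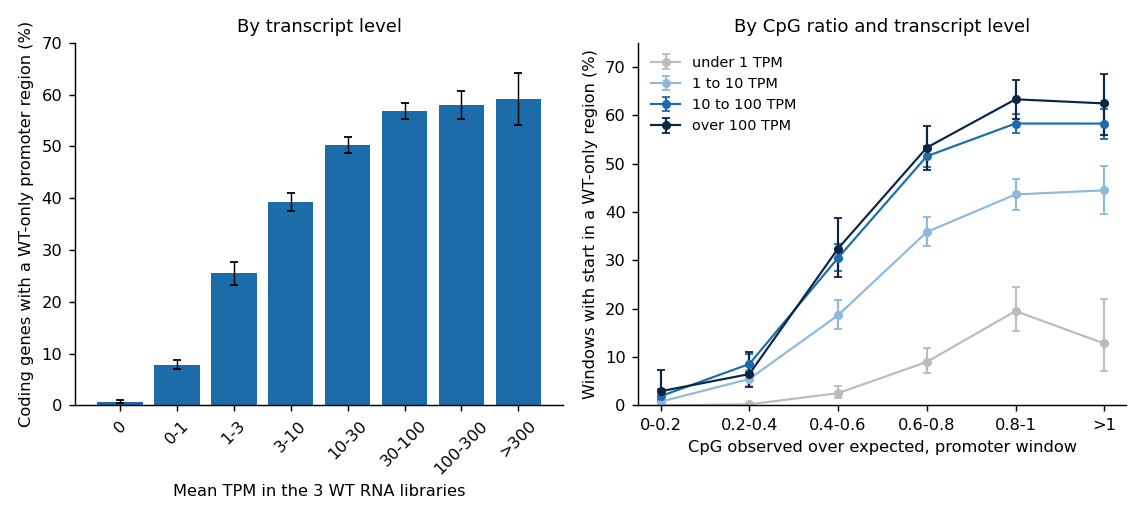
Left, share of coding genes with a WT-only promoter region (y axis, %) by mean TPM in the 3 libraries labelled WT (x axis); right, share of promoter windows whose start lies in such a region (y axis, %) by CpG observed over expected (x axis), with a line per TPM range. Bars and whiskers show shares with 95% Wilson intervals. The share climbs from 0.684% to 59.2% with the RNA level, and among genes over 100 TPM from 2.94% to 63.3% and 62.4% with the CpG ratio.

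Within a range of RNA levels the share still differed with the CpG ratio. Among genes over 100 TPM the start lay in a WT-only promoter region in 2.94% of windows with a ratio up to 0.2, in 6.49% from 0.2 to 0.4, in 32.4% from 0.4 to 0.6, and in 63.3% from 0.8 to 1. Among genes under 1 TPM it was 0 of 3185 windows at the lowest ratio (a Wilson interval of up to 0.120%) and 19.5% from 0.8 to 1. The rod and cone list, whose RNA was abundant, had a median ratio of 0.235, T cell genes 0.243 and microglia and myeloid genes 0.247, while core spliceosome genes had 0.968. RGC identity genes had 0.678, above those cell type lists and below the spliceosome list and the 0.718 of expressed promoters. Their summed RNA was low, as given below, and the part of RNA level and cell number in this was not tested.

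**Figure D3:**
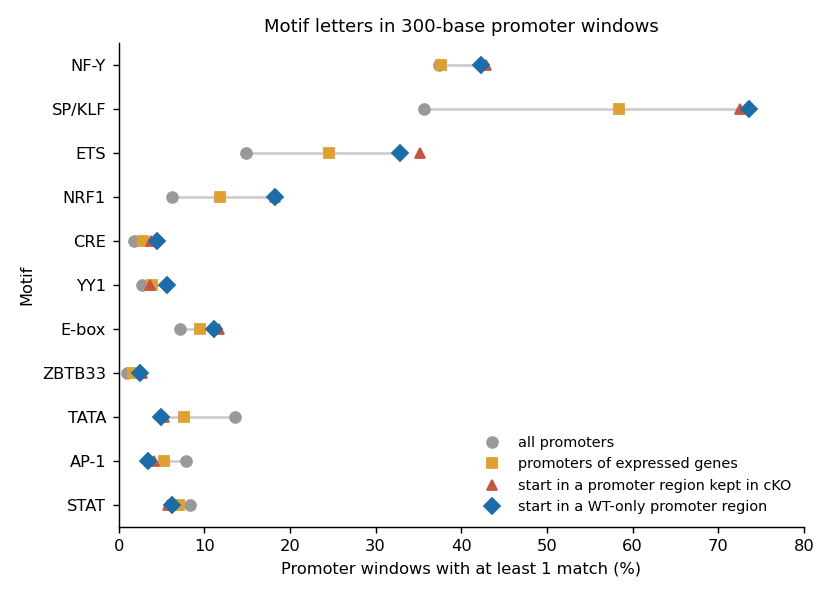
Share of 300-base promoter windows (x axis, %) with at least 1 match to each motif (y axis), on either strand, for all windows, promoters of expressed genes, starts in promoter regions kept in cKO and starts in WT-only promoter regions. The WT-only windows reach 73.5% for SP/KLF and lie close to the kept ones for most motifs, while TATA and AP-1 run the other way.

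GC boxes were the most common of the 11 motifs searched. The SP/KLF letters GGGCGG stood in 73.5% of the windows of WT-only promoter regions, in 58.4% of expressed promoters and in 35.6% of all. The ETS letters CCGGAA stood in 32.8%, against 24.5% and 14.9%, and the NRF1 letters GCGCANGCG in 18.3%, against 11.8% and 6.24%. CCAAT, the NF-Y box, differed less, with 42.3%, 37.6% and 37.4%. The letters TGACGTCA (CRE) stood in 4.44% of the windows against 1.79% of all, AAGATGGC (YY1) in 5.63% against 2.74%, CTCGCGAG (ZBTB33) in 2.51% against 0.921%, and the E-box CACGTG in 11.1% against 7.15%. TATAAA ran the other way with 4.99% against 13.6%, as did the AP-1 letters TGANTCA with 3.40% against 7.82% and the STAT letters TTCNNNGAA with 6.18% against 8.29%. Matches on both strands were counted, and motifs may overlap. GC content moved with these shares, and its part in them was not tested.

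Within the WT-only promoter regions the CCAAT box went with a higher WT value. Windows with the box had a median WT value of 5.39 and a median difference of 2.92, and windows without it 5.09 and 2.66. For GGGCGG the same pairs were 5.30 and 2.80 with the letters and 5.02 and 2.65 without. For CCGGAA they hardly moved, with 5.21 and 2.76 against 5.23 and 2.77. The cKO medians stayed between 2.43 and 2.60 for all 11 motifs, with or without a match.

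In the cKO values of the WT-only promoter regions the X chromosome stood apart. Its 187 WT-only promoter regions had a median WT value of 4.71 and a median cKO value of 1.28, against 5.08 and 2.50 for the 6338 on autosomes. The median difference was 3.49 on X and ranged from 2.53 to 2.94 over the autosomes, and 70.1% of the X regions had a difference over 3 against 35.8% of the autosomal ones. At equal WT values, between 4.23 and 5.26, the cKO median was 1.26 in 94 X regions and 2.41 in 2593 autosomal ones. The lowest cKO value of -0.75 was found in 9.09% of X regions and 0.663% of autosomal ones. Away from gene ends the 56 WT-only X regions also had a larger difference, 3.67 against 1.96. In regions without a peak in both WT libraries the median difference was -0.19 in 24 X regions and -0.17 on autosomes. Their cKO medians were 2.07 on X and 2.86 on autosomes, and their WT medians 1.57 and 2.59. Every region of the comparison overlaps peaks of at least 2 libraries, so each of these regions overlaps a cKO peak. That limits how low their cKO values can be, and nothing is read from their differences. Where a cKO peak was kept, 3 X promoter regions had 2.95 against 1.94, and 4 distal X regions 0.945 against 1.02. Of all peaks, 1.51% and 0.991% lay on X in the WT libraries and 0.268% and 0.384% in the cKO libraries.

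**Figure D4:**
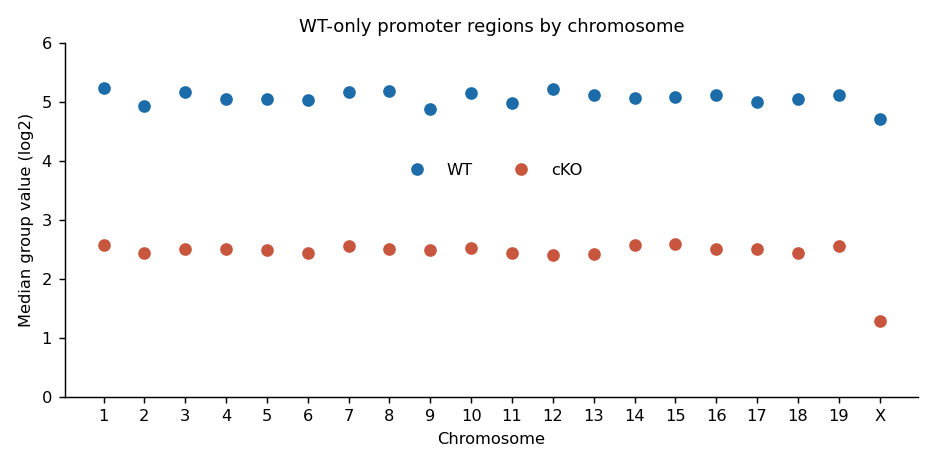
Median group value (y axis, log2 mean normalized reads) of the WT-only promoter regions on each autosome and on X (x axis), WT in blue and cKO in red. On X the cKO median of 1.28 lies below the range of 2.41 to 2.59 over the autosomes, while the WT median of 4.71 is 0.37 below the autosomal one.

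The RNA-seq libraries of both labels held little *Xist*, at most 0.0429 TPM, and 152 to 245 TPM of the Y-linked *Ddx3y*, but they are other libraries than those of ATAC-seq, where peaks on Y were 0.0117% to 0.0125% of all. The part of the animals' sex in the low X values was not tested.

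The RNA libraries, which the rule did not use, were compared next. *Arid1a* RNA did not mark the groups: the libraries labelled WT held 18.8, 11.7 and 14.1 TPM and those labelled cKO 18.8, 27.9 and 25 TPM, a log2 fold change of 0.66 (SE 0.28, adjusted p = 0.274, limma on log2(TPM + 1) with 17555 genes tested). The lowest cKO library met the highest WT library, and directions below are by label. A TPM of the whole gene also counts RNA of exons that Cre does not remove. Of the 8616 genes with a WT-only promoter region 7699 were in the RNA table and 6938 passed the filter on low TPM, 90.1% against 28.1% of the other genes, so the genes tested are the better expressed ones. An annotated start lay in reach of such a region for 6451 genes. Some of the 8616 were thus counted through a far end or without a known strand, where the region may belong to a neighbour.

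As a group, genes with a WT-only promoter region did not have lower RNA in the libraries labelled cKO than other genes. The median log2 fold change (cKO minus WT) was 0.16 for the 6938 genes and 0.16 for all genes tested. After limma with Benjamini-Hochberg adjustment 0 of the 6938 genes passed 0.05 in either direction, where the background was 0.0057% higher (1 gene, *Gm47101*) and 0% lower. At an unadjusted p under 0.05, 708 genes (10.2%) were higher in the libraries labelled cKO, against a background of 11.9%, and 258 (3.72%) were lower, against 6.45%. The 3 WT and 3 cKO values did not overlap in 1304 genes (18.8%) that were higher, against 18.7%, and in 356 (5.13%) that were lower, against 7.18%. Scaling the libraries by the median of ratios moved the median of all genes to 0.01, and the split at unadjusted p then turned to 403 higher and 515 lower. All genes tested turned in the same way, to 1328 higher and 1674 lower, so that 43.9% of such genes were higher with a WT-only promoter region and 44.2% over all. TPM keeps no sequencing depth, so no counting error can be given, and fewer cells of a type cannot be told apart from less RNA per cell.

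Genes with larger ATAC differences did not have lower RNA either. Among the 1735 genes with the smallest differences (up to 2.13) the median RNA log2 fold change was 0.15 and 4.84% were lower at an unadjusted p under 0.05, and among the 1735 with the largest (3.43 and more) it was 0.18 and 2.48%. Higher genes went from 12.0% to 8.65% between the same sets. Across the 6938 genes Spearman's rank correlation between the ATAC difference (WT minus cKO) and the RNA log2 fold change was 0.011, and both values of a gene rest on shared libraries.

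The genes that the study names, which are not all injury genes, were as a set on the low side in the libraries labelled cKO. Of 23 tested, 12 had an unadjusted p under 0.05 and were lower, 0 were higher, 0 passed the adjustment, and the median log2 fold change was -0.89, but the list was chosen on these samples. *Socs1* measured 11.3, 12.7 and 11.7 TPM in WT and 3.49, 1.61 and 3.39 TPM in cKO (log2 fold change -1.79, SE 0.31, adjusted p = 0.124 by limma). *Nfkbia* measured 351, 257 and 407 TPM in WT and 139.8, 96.7 and 138.9 TPM in cKO, with the same adjusted p. The WT and cKO values of both genes were well apart. *Socs3* measured 144, 154 and 258 TPM in WT and 87.4, 63.9 and 129.7 TPM in cKO, and *Fos* 3729, 2514 and 4346 TPM against 1544, 1320 and 2570 TPM. The cKO library with the most *Fos* lay above the WT library with the least. *Sp1*, with a promoter value of 7.95 in WT, measured 5.12, 6.73 and 7.11 TPM in WT and 6.14, 6.79 and 7.60 TPM in cKO, which overlap (log2 fold change 0.11, SE 0.27).

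**Figure D5:**
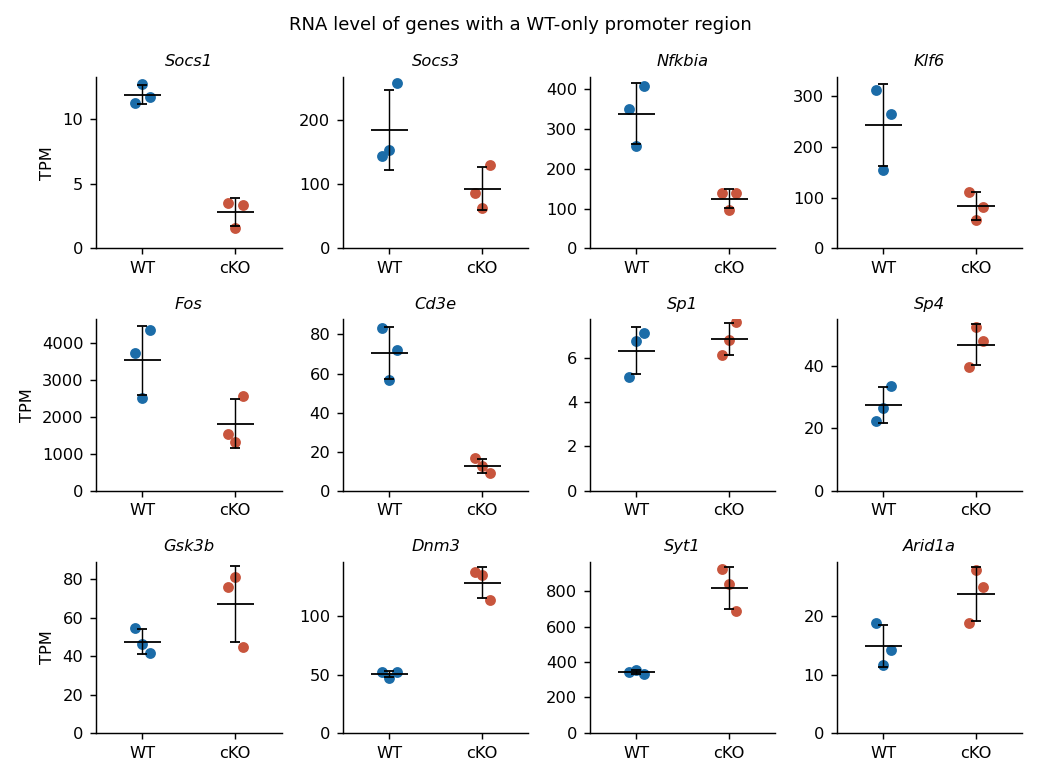
TPM (y axis, linear, from 0) of 12 genes with a WT-only promoter region in each of the 3 RNA libraries labelled WT (blue) and the 3 labelled cKO (red); lines show the mean and whiskers the SD. *Socs1*, *Socs3*, *Nfkbia*, *Klf6* and *Cd3e* lie lower in every cKO library, *Sp4*, *Dnm3* and *Syt1* higher, and *Fos*, *Sp1*, *Gsk3b* and *Arid1a* overlap or meet.

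Several genes of neurons and synapses were among the 10 with the lowest p that were higher. *Snhg9*, a small nucleolar RNA host gene, had the lowest adjusted p of all genes with such a region, 0.0686: it was listed at 0 in each WT library and measured 12.5, 7.36 and 7.26 TPM in cKO. *Dnm3*, a dynamin of synapses, measured 52.0, 47.1 and 52.3 TPM in WT and 137.5, 135.2 and 113.5 TPM in cKO (log2 fold change 1.33, SE 0.19, adjusted p = 0.124 by limma). *Syt1*, the calcium sensor of synaptic vesicles, measured 346, 357 and 334 TPM against 923, 839 and 687 TPM. WT and cKO promoter values were 5.31 and 1.82 at *Dnm3* and 5.75 and 2.93 at *Syt1*. The rule chose regions without a cKO peak, so a higher WT value is not particular to these genes. *Scamp5*, *Unc80*, *Grm8*, *Bbs5*, *Zrsr1* and *Ufsp1* were others of these 10, with log2 fold changes of 1.14 to 1.81.

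Immune genes were among the 10 with the lowest p that were lower. *Cd3e*, part of the T cell receptor, measured 83.1, 56.7 and 72.2 TPM in WT and 16.5, 12.4 and 9.13 TPM in cKO (log2 fold change -2.41, SE 0.29, adjusted p = 0.124 by limma), with a promoter difference of 1.05. *Psme2*, an interferon-induced activator of the proteasome, measured 239, 225 and 181 TPM against 105, 78.7 and 84.4 TPM, with a promoter difference of 3.90. *Ltb*, a lymphotoxin, and *Ube2l6*, the enzyme that loads ISG15, were lower as well, but their regions lay at the far end of the gene. *Cib1*, *Socs1*, *Cdc42se1*, *Gltp*, *Sdf2l1* and *Ppp1r18* had log2 fold changes of -1.79 to -1.09.

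Several sets of cell type markers moved with the RNA labels. The 6 T cell markers summed to 601 to 1768 TPM in WT and 160 to 352 TPM in cKO, and the 6 microglia and myeloid markers to 1817 to 2882 TPM and 742 to 1012 TPM. The 6 rod and cone markers summed to 13187 to 18323 TPM in WT and 26461 to 50790 TPM in cKO. The 10 RGC markers summed to 83.3 to 121 TPM and 137 to 171 TPM, and *Pou4f2* was at 0 in all libraries but 1. The 4 Mueller glia markers overlapped between the labels, with 5642 to 10884 TPM in WT and 3877 to 8498 TPM in cKO, as did the 4 endothelial markers, with 205 to 536 TPM and 168 to 592 TPM. No marker of the other lists was at 0 in any library. The part of these cell types in the RNA values of the named genes was not tested.

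By list, 0 genes passed the adjustment, and counts at an unadjusted p under 0.05 stand beside 11.9% higher and 6.45% lower over all genes tested, with several counts close to these shares. Of 17 AP-1 and immediate early genes with a WT-only promoter region 6 were lower and 0 higher, with a median log2 fold change of -0.88, *Junb* and *Egr1* being among them. Of 24 SOCS and JAK-STAT genes 6 were lower and 0 higher (median -0.27), *Ifnar2*, an interferon receptor, and *Il6ra* with them. Of 33 apoptosis genes 7 were lower and 2 higher (median -0.16), with *Bcl2*, which guards against cell death, at 13.4, 11.2 and 14.6 TPM in WT and 5.73, 4.95 and 7.02 TPM in cKO. *Klf6*, a factor that aids axon growth, was 1 of 2 lower among 12 KLF and SP factors, at 312, 154 and 265 TPM against 111.4, 56.8 and 81.7 TPM, while *Sp4* was the 1 higher. Of 26 cell cycle genes 3 were lower, all of them helicase subunits of replication (*Mcm3*, *Mcm5* and *Mcm6*). Of 40 genes of protein processing in the endoplasmic reticulum 4 were lower, *Xbp1* and *Derl3* with them, and 1 higher, *Uggt2*.

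The lists of widely used genes had counts of higher genes near or below the 11.9% and counts of lower genes near or below the 6.45% over all genes tested. Of 55 ribosomal protein genes 2 were lower, *Rplp0* and *Rpl14*, and 0 higher, with a median log2 fold change of -0.01. Of 41 spliceosome genes 1 was higher, *Snrpb2*, and 0 lower, with a median of 0.26. Of 35 autophagy genes 4 were higher, among them the receptor *Optn* at 40.0, 50.02 and 44.7 TPM in WT and 76.5, 120.5 and 89.1 TPM in cKO, and 1 was lower. Of 32 chromatin modifiers 4 were higher and 0 lower. Of 18 BAF subunits 1 was higher, the neuronal subunit *Dpf3*, at 24.9, 20.3 and 24.7 TPM in WT and 43.9, 60.5 and 59.1 TPM in cKO. The retinal genes *Rom1*, *Gnat2*, *Pax6*, *Slc6a9* and *Tubb3* were each higher in cKO by label (unadjusted p under 0.05 by limma). Their log2 fold changes were 0.83 to 1.99. As in nearly all regions that the rule chose, their promoter value was higher in WT. By list, of the tested genes with such a region, 2 of 2 rod and cone genes were higher at this p. So were 2 of 3 amacrine and bipolar cell genes and 1 of 2 RGC identity genes. Of 2 Mueller glia and astrocyte genes 0 were higher and 0 lower, with a median log2 fold change of -0.53.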

How the data were processed

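The authors trimmed reads with Trimmomatic, aligned ATAC-seq reads to GRCm38 with Bowtie 2, called peaks per library (the submitters' processing notes list Bowtie2 2.3.5.1, MACS2 2.2.5, Salmon 1.0.0 and DESeq2 1.26.0) and compared regions with DiffBind. Deposited per region are 2 group values, the log2 of mean normalized reads. The deposited peak lists give positions alone. RNA-seq values are TPM made by the authors with Salmon and tximport, which keep no depth, and the depth of the ATAC-seq libraries is unknown as well. The authors' own fold changes, p-values and FDRs, per region and per gene, were not used.

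Regions and peaks were intersected (1 bp or more) in Python 3.11.15. RefSeq genes give 2 ends without strand, so a promoter is 1000 bp from either end; strand came from the RefSeq promoter table (GRCm38.p6), which is not complete. Printed positions count from 1. No genome of this build was used, so regions themselves have no sequence here. log2(TPM + 1) was compared with limma 3.58.1 in R 4.3.3 (trend, Benjamini-Hochberg over all genes, threshold 0.05, at least 1 TPM in at least 3 libraries), and a fold change on this scale understates that of low genes. Scripts were tested on simulated data. Regions, lists and motifs were chosen with earlier results of these data known. Named are the genes the study discusses, regions with the highest WT values and the largest and smallest differences, genes with the lowest p whose groups do not overlap, and per list those with the highest WT values or lowest p; other names were chosen after their values were seen. Some genes this rule names are not reported here. Nothing says how animals were divided between samples beyond pooling, so p-values measure the spread between these samples. Same-numbered RNA libraries deviated together (correlations across genes of 0.334, 0.101 and 0.425), so the replicate number was run as a block. Alternatives were other overlaps, windows, filters, pseudocounts and scalings, and leaving out each library.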

Additional observations from a re-analysis of the deposited data

How the results depend on the processing

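For the regions, a reciprocal overlap of 50%, windows of 500 or 3000 bp, gene starts only (those inside genes included), a WT value of at least 4, autosomes only (chosen after seeing the data) and leaving out each ATAC-seq library kept the count within 1.5 times 6526. Among the values, the median WT value moved to 5.22 with the reciprocal overlap and to 5.19 with a WT value of at least 4. Leaving out the peaks of an ATAC-seq library gave 6526 to 6899 regions. The values are pooled over the libraries and could not be recomputed without one, so the median differences of 2.65 to 2.68 reflect the choice of regions alone. Every region of the comparison overlaps peaks of at least 2 libraries, so leaving out a WT library adds no region without a cKO peak. For these values no fit with a replicate block exists, since ATAC-seq values are pooled by group.

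For RNA-seq of genes with a WT-only promoter region, median of ratios scaling gave 403 genes that were higher and 515 that were lower, at unadjusted p below 0.05, and turned the median log2 fold change to -0.00013, by its own construction, beside 1328 and 1674 over all genes. Without the trend 1 gene, *Snhg9*, passed the adjusted threshold (3.29, adjusted p = 0.0413). Leaving out a library gave 278 to 837 higher and 119 to 350 lower genes and medians of 0.062 to 0.26, the lowest counts without cKO replicate 2 (278 and 119) and then without cKO replicate 1 (336 and 162), with fewer samples, beside 976 to 2279 and 699 to 1321 over all genes, while 0 passed the adjustment. With the replicate number as a block 819 were higher and 356 lower by unadjusted p (2352 and 1495 over all genes) and 0 passed the adjustment, and the pairing changed no other call. Of 42 named genes and 499 recomputed values, 494 kept direction and side of the threshold. At most 4 of all genes tested passed the threshold in any setting, so the side of it could hardly change. *Sp1* turned to -0.040 with median of ratios scaling and ranged from -0.018 to 0.19 when a library was left out, below 0 without WT replicate 1. *Foxo3* ranged from -0.46 to 0.10 then, above 0 without WT replicate 2 and without cKO replicate 3. The cause was not tested. Against promoters of expressed genes in place of all, the excess in the windows fell to 3.33 points of GC content from 10.7 and to 0.111 in the CpG ratio from 0.445.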

Other observations

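Some genes had more than 1 WT-only promoter region. Of 8616 genes with such a region 241 had 2 or more, with 3 at *Fam120a* and 2 at *Gadd45b*, a stress-induced gene, at *Nab2*, a partner of the EGR factors, and at *Mtf1*, the metal-response factor. At 52 genes a WT-only region stood beside a promoter region that kept a cKO peak.

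The 751 promoter regions that kept a cKO peak included several regulators. *Creb1*, a factor of activity-dependent transcription, had a WT value of 6.73 and a cKO value of 3.92, *Hnrnpk*, an RNA-binding protein, 7.27 and 4.01, and *Klf11* 7.42 and 4.50. *Suz12*, a subunit of the Polycomb complex, differed little, with 5.41 and 4.80. In 7 of the kept regions the cKO value was the higher.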
